A study of Mus musculus with 8 samples.

Results

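The collagen chain genes are the genes whose official symbol is Col, a number, the letter a and a number. The count table held 44 of them among 23403 genes, and all 44 were taken by symbol alone, with no use of their values. Of these, 23 passed the low-count filter and were tested within the 13619 genes that did, and 21 stayed below it. RNA-seq covered Hepa-1 cells, a mouse hepatoma line, in 2 libraries of cells given hexavalent chromium (25 µM CrK2O4 in the medium for 90 minutes, written here as 25 µM Cr(VI)) and 2 libraries of control cells with no chromium, whose labels do not say which control regimen they followed. FAIRE-seq, which recovers DNA with few histone contacts, covered 1 library of cells at 25 µM Cr(VI) for 90 minutes, 1 library of cells passaged 20 times with 0.5 µM Cr(VI), and 1 control library for each. All libraries came from the same line, grown in α-MEM with fetal bovine serum.

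Collagens are secreted proteins in which chains wind round each other as a triple helix. Each collagen type needs particular chains: collagen I usually combines chains from Col1a1 and Col1a2, collagen IV of basement membranes combines Col4a1 with Col4a2 or Col4a3 with Col4a4 and Col4a5, and collagens II, III, VII, VIII and others can form from copies of a single chain. In the liver most fibrillar collagen is made by stellate cells and fibroblasts, while hepatocytes are known for secreted plasma proteins. Fibrillar collagens give tissue its tensile strength, network collagens form sheets, and other chains join fibrils to each other, to basement membranes or to cells.

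After 90 minutes at 25 µM Cr(VI) the collagen chains moved in both directions. Transcripts of Col11a2, Col18a1 and Col6a1 rose, and transcripts of Col5a2, Col4a3 and Col8a1 fell (edgeR quasi-likelihood test, Benjamini-Hochberg adjusted p-values under 0.05 over all 13619 tested genes). These 6 genes were 26.1% of the 23 tested collagen genes, where 4.63% of all tested genes were called (1.78% higher and 2.85% lower). Col5a2, a fibrillar chain, changed most, to about 1 part in 18.7 of its control level. The median log2 fold change was 0.81 over the tested collagen genes and -0.0047 over all tested genes. A positive value was found for 13 of the 23 and for 6761 of all 13619 tested genes. DESeq2 called 10 of the 25 collagen genes it tested, 7 higher and 3 lower, where it called 14.2% of all genes. The 6 genes named above were among those 10, and the other 4, all higher, were Col27a1 (DESeq2 adjusted p = 0.00292), Col15a1 (0.0155), Col7a1 (0.021) and Col2a1 (0.0479).

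The total counts per library were 32877791 and 32319676 in treated cells and 33303645 and 37696116 in control cells. The treated libraries were less alike than the controls: 1404 of all tested genes differed more than 2-fold between the treated libraries and 83 between the controls. By plain ratios of normalized CPM, 4 tested collagen genes were over 2-fold apart between the treated libraries. They were Col2a1, Col4a4, Col20a1 and Col23a1, picked out after their values were seen. Between the controls, Col16a1 was over 2-fold apart. The counts over all tested genes used log2 CPM with a small count added, which draws low counts together. The collagen counts are therefore not set against them. Nothing in the labels says that the libraries of a group came from separate cultures, so p-values measure the spread between these samples, which may be technical. In bulk RNA, fewer cells of a type and less RNA per cell cannot be told apart. The treated and control libraries did not overlap in normalized CPM for 20 of the 23 tested collagen genes (13 above and 7 below), and for 66.3% of all tested genes.

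The promoters that lie beside called genes are shown first, because the position of opened chromatin is later set against them. Each window holds the 250 bases before the annotated start on the gene's own strand, from RefSeq on GRCm38.p6, the same assembly as mm10. Capitals mark the GC box GGGCGG, the CCAAT box, the TATA sequence TATAAA or the AP-1 sequence TGAGTCA on either strand, which were the 4 motifs searched. AP-1 is the Fos and Jun family of factors that respond to stress. The windows are chr10:77166531-77166780 (minus strand) for the outer start of Col18a1, chr10:76726045-76726294 (minus strand) for Col6a1 and chr16:57754738-57754987 (minus strand) for Col8a1. The windows of Col11a2 and of the inner start of Col18a1 overlap annotated exons and are not shown.
Col18a1: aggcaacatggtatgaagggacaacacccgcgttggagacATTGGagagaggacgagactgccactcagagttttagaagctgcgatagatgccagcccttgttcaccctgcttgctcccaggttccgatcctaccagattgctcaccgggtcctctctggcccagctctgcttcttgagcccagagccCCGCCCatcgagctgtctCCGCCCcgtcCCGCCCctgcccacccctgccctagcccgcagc
Col6a1: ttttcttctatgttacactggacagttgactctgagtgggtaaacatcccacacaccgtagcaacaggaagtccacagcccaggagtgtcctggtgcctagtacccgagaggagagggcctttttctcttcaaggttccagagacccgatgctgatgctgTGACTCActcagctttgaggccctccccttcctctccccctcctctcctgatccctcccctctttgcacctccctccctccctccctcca
Col8a1: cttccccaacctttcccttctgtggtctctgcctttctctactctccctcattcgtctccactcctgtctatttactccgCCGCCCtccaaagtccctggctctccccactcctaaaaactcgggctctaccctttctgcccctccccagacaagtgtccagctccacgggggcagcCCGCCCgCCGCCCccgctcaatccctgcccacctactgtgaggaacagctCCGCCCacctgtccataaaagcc

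The table of promoters held 38 windows for 35 of the 44 collagen genes. The entries not in it were Col5a2, Col1a1, Col12a1, Col14a1, Col2a1, Col4a3, Col22a1, Col26a1 and Col9a3. The AP-1 sequence stood in 1 of the 38 windows, that of Col6a1, and in 4.46% of all 32851 windows. A GC box stood in 22 collagen windows, against 32.7% of all windows, and a CCAAT box in 13, against 33.8%. The TATA sequence was found in 5 collagen windows, against 12.4% of all. A match is a description of letters and not evidence that a factor binds.

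Among the fibrillar chains, the largest fall and the largest rise of the tested collagen genes stood side by side. Col5a2 (chr1:45374331-45503282, minus strand) encodes a chain of collagen V, which sits inside collagen I fibrils and limits their width. It had 36 and 32 reads in the treated libraries and 701 and 802 in the controls, so the groups were far apart and the members of each group close together. Its normalized level was 1.08 ± 0.0288 CPM (SD, n = 2) after Cr(VI) and 20.3 ± 0.247 CPM (SD, n = 2) in control cells, a log2 fold change of -4.23 (SE 0.18, edgeR adjusted p = 0.0244). If normalized CPM were absolute amounts and no new RNA was made in the 90 minutes, the RNA would need to halve every 21.3 minutes. Synthesis, decay and the amount of RNA per cell were not measured. Col5a2 was also called lower in each of the 10 alternative fits, with log2 fold changes between -4.34 and -4.19.

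Col11a2 (chr17:34038919-34066684, plus strand) encodes a chain of collagen XI, a cartilage collagen that joins collagen II in thin fibrils. It had 74 and 92 reads after Cr(VI) and 7 and 15 in control cells, which did not overlap. The level was 2.68 ± 0.699 CPM (SD, n = 2) against 0.293 ± 0.129 CPM (SD, n = 2), a log2 fold change of 3.16 (SE 0.44, edgeR adjusted p = 0.0419). Its control reads were few. The log2 fold change was 2.77 without control replicate 1, where the gene was not called, and 3.69 without control replicate 2.

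The other fibrillar chains did not pass the threshold of edgeR. Col1a1, the main chain of collagen I, had 234 and 364 CPM in the treated libraries and 203 and 207 CPM in the controls. Both treated values lay above both controls, but the treated libraries were far from each other, and the log2 fold change of 0.54 (SE 0.24) had an adjusted p of 0.209 in edgeR. Col27a1, a fibrillar chain of cartilage, was at 8.81 and 10.6 CPM against 3.83 and 4.40 CPM, which gave a log2 fold change of 1.23 (SE 0.21) and an edgeR adjusted p of 0.0533, just outside the threshold. Col2a1, the main cartilage collagen, had 12 and 65 reads after Cr(VI) and 6 and 8 in control cells, so that its log2 fold change of 2.74 (SE 1.02) came largely from 1 library. Without treated replicate 2 the log2 fold change of Col2a1 was 0.89. Col3a1, the single chain of collagen III, had 77 and 99 reads against 102 and 109, and a log2 fold change of -0.01 (SE 0.29).

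**Figure D1:**
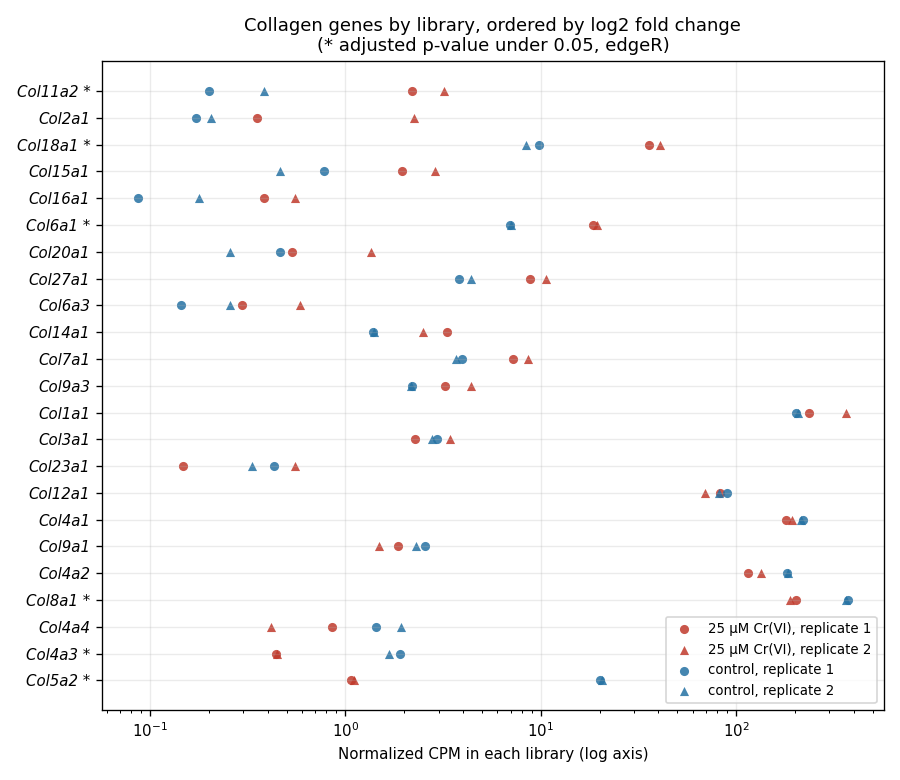
The horizontal axis gives the normalized CPM of each tested collagen gene on a log scale, and each row is a gene, ordered by log2 fold change with the largest rise at the top. Red marks are the 2 libraries at 25 µM Cr(VI) and blue marks the 2 control libraries. The 6 starred genes are those called, with Col5a2 at the bottom and Col11a2 at the top among them. Red and blue marks do not overlap for 20 of the 23 genes, the 6 starred ones included, and for 66.3% of all tested genes.

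The 5 tested network-forming chains had lower values after Cr(VI) than in control cells. Of these, 2 were called lower, Col8a1 and Col4a3, where 2.85% of all tested genes were. All 5 genes are at least 100000 bases long, and 28.6% of all tested genes of that length had a positive log2 fold change. The part of length in these values was not tested. Col8a1 (chr16:57624256-57754737, minus strand) encodes a short chain that builds hexagonal lattices under endothelia and in vessel walls. It had the highest level per exon length of all collagen genes in control cells. Its level was 201 and 188 CPM after Cr(VI) and 374 and 365 CPM in control cells, which did not overlap. The log2 fold change was -0.92 (SE 0.12, edgeR adjusted p = 0.0391). Its adjusted p was 0.324 without control replicate 1 and 0.287 without control replicate 2, with the log2 fold change at -0.93 and -0.96.

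Col4a1 and Col4a2 encode the chains of the common collagen IV network and lie head to head on chromosome 8. Col4a2 was at 114 and 134 CPM after Cr(VI) and 182 and 184 CPM in control cells, a log2 fold change of -0.56 (SE 0.13, edgeR adjusted p = 0.0837). Col4a1 was at 179 and 193 CPM against 220 and 215 CPM, a log2 fold change of -0.22 (SE 0.11, edgeR adjusted p = 0.252). For both genes the treated libraries lay below the controls, and neither passed the threshold. Per exon length the ratio of Col4a1 to Col4a2 RNA was 1.34 and 1.23 in the treated libraries and 1.04 and 1.00 in the controls. These ratios did not overlap, but an exact permutation test of 2 against 2 libraries cannot go below the two-sided p of 0.333 it gave. Col4a1 shares 988 exon bases with an antisense RNA gene, Gm15418, and 85 with Col4a2.

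Col4a3 (chr1:82586921-82722059, plus strand) and Col4a4 encode chains of the collagen IV found in the kidney glomerulus, and they too lie head to head. Col4a3 had 15 and 13 reads after Cr(VI) and 66 and 65 in control cells. Its level of 0.446 ± 0.00388 CPM (SD, n = 2) against 1.78 ± 0.167 CPM (SD, n = 2) gave a log2 fold change of -1.99 (SE 0.28, edgeR adjusted p = 0.0438). Without control replicate 1 the adjusted p was 0.391 and without control replicate 2 it was 0.283. Its neighbour Col4a4 had 29 and 12 reads against 50 and 75, a log2 fold change of -1.38 (SE 0.44, edgeR adjusted p = 0.13). The starts of both genes overlap by 114 exon bases on opposite strands, and the library kit did not keep the strand, so reads there cannot be assigned to either gene. Of the 23 tested collagen genes, 12 share exon bases with another annotated gene, but Col4a3 was the single one of these among the 6 called genes.

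The 2 tested beaded-filament chains of 6, and both endostatin-bearing chains, had higher values after Cr(VI) than in control cells. Of these, Col6a1 and Col18a1 were called higher, where 1.78% of all tested genes were. Col6a1 (chr10:76708792-76726044, minus strand) encodes a chain of collagen VI, whose microfibrils surround cells. It had 625 and 560 reads after Cr(VI) and 242 and 276 in control cells. The level was 18.9 ± 0.609 CPM (SD, n = 2) against 7.01 ± 0.0696 CPM (SD, n = 2), a log2 fold change of 1.43 (SE 0.15, edgeR adjusted p = 0.0317). Its adjusted p was 0.175 without control replicate 1 and 0.162 without control replicate 2. Col6a3, the large chain of the same type, had 10 and 17 reads against 5 and 10, a log2 fold change of 1.10 (SE 0.56) that did not pass.

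Col18a1 (chr10:77052178-77166530, minus strand) encodes a basement membrane proteoglycan chain whose end fragment, endostatin, restrains vessel growth. It had 1208 and 1177 reads after Cr(VI) and 339 and 328 in control cells, with no overlap. The level was 38.2 ± 3.49 CPM (SD, n = 2) against 9.07 ± 0.963 CPM (SD, n = 2), a 4.21-fold rise (log2 fold change 2.07, SE 0.16, edgeR adjusted p = 0.0282). Like Col5a2, it was called in each of the 10 alternative fits. Col15a1, its closest relative, had 66 and 83 reads against 27 and 18, a log2 fold change of 1.96 (SE 0.40, edgeR adjusted p = 0.0704).

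No fibril-associated, anchoring-fibril or transmembrane chain was called by edgeR, while DESeq2 called Col7a1. Col7a1, which anchors epithelial basement membranes to the tissue below, was at 7.21 and 8.56 CPM after Cr(VI) and 3.97 and 3.68 CPM in control cells, and its log2 fold change of 1.04 (SE 0.20) had an adjusted p of 0.0635. Col12a1, which decorates the surface of collagen I fibrils, was at 82.5 and 69.0 CPM against 89.9 and 81.5 CPM, and the groups overlapped. The log2 fold changes of the others were 1.76 for Col16a1, 1.38 for Col20a1, 1.06 for Col14a1, 0.81 for Col9a3, -0.53 for Col9a1 and -0.15 for Col23a1. For Col12a1 the value was -0.18. An unadjusted p under 0.05 was reached by 15 of the 23 tested collagen genes and by 30.7% of all tested genes.

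**Figure D2:**
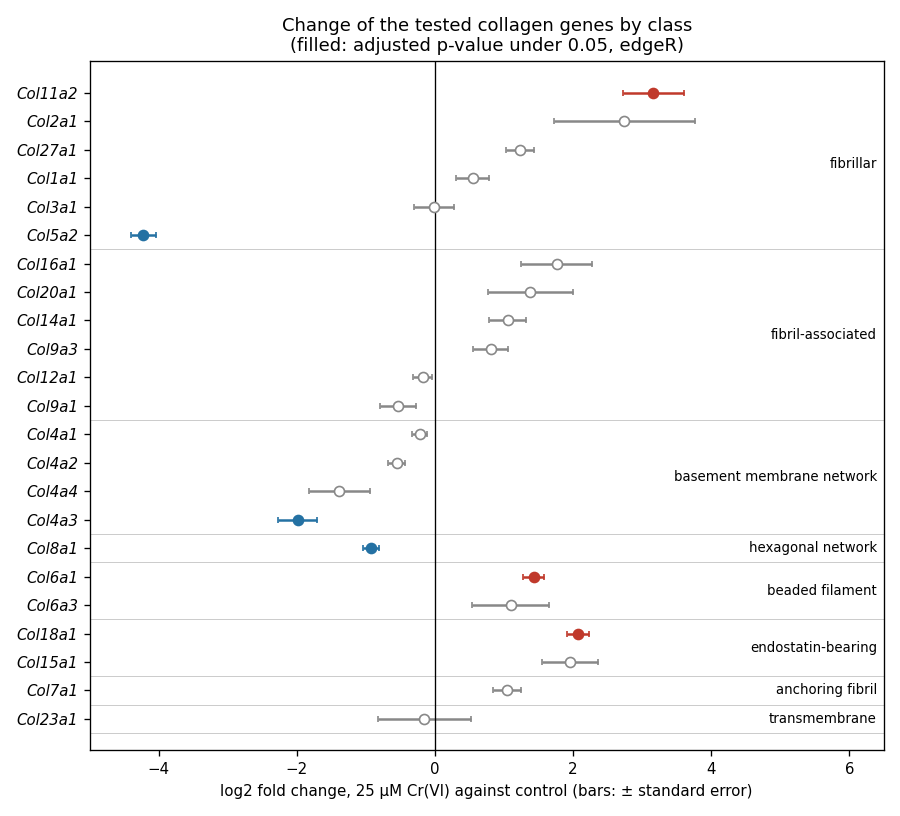
Points give the log2 fold change of each tested collagen gene at 25 µM Cr(VI) against control, bars give ± 1 standard error from the edgeR fit, and rows are grouped by the kind of structure the chain builds. Filled points are the 6 called genes, with all 4 tested basement membrane network chains and Col8a1 left of 0 and both endostatin-bearing chains and both tested beaded-filament chains right of it.

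Read against chain partners, several chains were present without the chain they usually join. Col1a1 had between 7066 and 10547 reads in each library, while its partner Col1a2 had 5 and 2 reads after Cr(VI) and 1 and 0 in control cells. Col5a2 had 701 and 802 control reads, while Col5a1 had 1 read in all 4 libraries and Col5a3 between 0 and 4 a library. Col6a1 stood beside 0 to 4 reads of Col6a2 in each library. Col11a2 was likewise measured beside 0 reads of Col11a1. Col9a3 stood beside at most 1 read of Col9a2 in a library. Col9a1, of the same collagen type, was present, with 63 and 43 reads after Cr(VI) and 89 and 90 in control cells. Col8a1 had between 5450 and 14253 reads a library, and Col8a2 had 1 and 12 after Cr(VI) and 0 and 0 in control cells. Collagen VIII can form from copies of a single chain, so Col8a1 does not need Col8a2. Col4a1 and Col4a2 were both abundant, with the ratios given above, and Col4a3 and Col4a4 were both present at low levels, without Col4a5, which had at most 1 read a library. These are RNA levels, and protein was not measured.

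The 21 genes below the filter had at most 24 reads in a library, and that count was of Col4a6 in treated replicate 2. Col11a1, Col13a1 and Col6a4 had 0 reads in all 4 libraries, which allows up to 3 reads in each by counting error alone. The highest counts of the others were 12 for Col8a2, 10 for Col28a1, 9 for Col24a1, 6 for Col17a1 and Col6a5, 5 for Col1a2, and 4 for Col10a1, Col5a3 and Col6a2. Col22a1 and Col26a1 reached 3, and Col4a5, Col5a1, Col9a2, Col19a1, Col25a1 and Col6a6 did not exceed 1.

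Per exon length, a few chains made up nearly all collagen RNA. The summed RPKM of all collagen genes was 141 and 167 after Cr(VI) and 181 and 179 in control cells, and their share of all counts was 0.0928% and 0.0946% against 0.118% and 0.115%. Col8a1 led in control cells with 73.2 and 71.3 RPKM, followed by Col1a1 with 34.3 and 34.9 RPKM. Col4a1 (29.3 and 28.5 RPKM) and Col4a2 (28.2 and 28.5 RPKM) came next and did not differ beyond their spread. After Cr(VI) the order at the top changed: Col1a1 had 39.5 and 61.4 RPKM and Col8a1 39.4 and 36.8 RPKM, which were nearly equal in replicate 1.

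As shares of the collagen RPKM, Col8a1 took 27.8% and 22.0% after Cr(VI) and 40.4% and 39.9% in control cells, while Col1a1 took 27.9% and 36.7% against 18.9% and 19.5%. Neither share overlapped between the groups. The same 4 leading chains together held 85.2% and 86.5% against 91.0% and 91.4%. The share of Col18a1 was 3.48% and 3.34% against 0.741% and 0.646%, and that of Col5a2 was 0.114% and 0.0998% against 1.68% and 1.73%. Shares within a sum depend on each other, and the fall of Col8a1 alone raises the share of the rest.

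**Figure D3:**
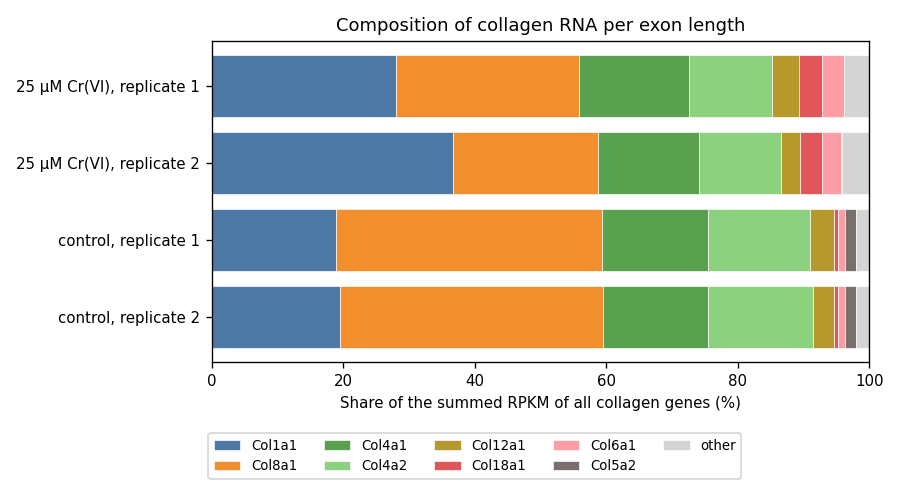
Each bar is 1 RNA-seq library and its segments are the shares, in percent, of the summed RPKM of all collagen genes, with 8 genes drawn and the remaining genes as other. Col8a1 is the widest segment in both control libraries, at 40.4% and 39.9%, and Col1a1 is the wider one in treated replicate 2, at 36.7%.

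The genes that make, sense and break down collagen are read against the 4.63% of all tested genes called by edgeR, the 14.2% called by DESeq2 and the 30.7% with an unadjusted p under 0.05. Of 35 genes for collagen synthesis and processing, 26 were tested and edgeR called 0; P4hb, a subunit of the prolyl hydroxylase that stabilizes the helix and the most abundant of them, had a log2 fold change of 0.03. At an unadjusted p under 0.05 there were 5, named after their values were seen: Adamts14 (1.44), Bmp1 (0.61) and P3h1 (0.50) had positive log2 fold changes and Loxl4 (-1.30) and Fkbp14 (-0.80) negative ones. DESeq2 called Adamts14, Loxl4 and Fkbp14. Of 18 breakdown genes, 11 were tested and edgeR called 0. An unadjusted p under 0.05 was reached by 2, the gelatinase Mmp9 (log2 fold change 3.80) and the collagen-cleaving cathepsin Ctsk (2.83), and DESeq2 called Mmp9. Both rest on few control reads. Mmp9 had 67 and 144 reads after Cr(VI) and 12 and 6 in control cells. Ctsk had 13 and 47 against 6 and 4, so its value came largely from treated replicate 2. The most abundant breakdown gene, the inhibitor Timp2, had a log2 fold change of 0.12.

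Of 12 receptor genes, 9 were tested and edgeR called 1, beside 4.63% of all tested genes. A count of 1 of 9 is too few to set apart from that share. At an unadjusted p under 0.05 there were 3, where 30.7% of all tested genes were, and DESeq2 called the same 1 as edgeR. Itga1, an integrin subunit that binds basement membrane collagen, had 83 and 72 reads after Cr(VI) and 357 and 395 in control cells. Its level fell by 2.04 on the log2 scale (SE 0.18, edgeR adjusted p = 0.0295). Itgb1, its partner subunit and the most abundant receptor gene, had a log2 fold change of -0.20 and did not pass.

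Of 31 other matrix genes, 20 were tested, and edgeR called 3 higher and 2 lower, beside 1.78% higher and 2.85% lower of all tested genes. At an unadjusted p under 0.05 there were 11, where 30.7% of all tested genes were. DESeq2, which called 14.2% of all genes, called 7, with Lamb1 and Matn2, both higher, beside those called by edgeR. The laminin chains Lamb3 and Lama5 rose by log2 fold changes of 1.96 (SE 0.19) and 1.57 (SE 0.17), and the small proteoglycan decorin, Dcn, which binds collagen fibrils, by 1.16 (SE 0.14). The related proteoglycan biglycan, Bgn, fell by 1.70 (SE 0.19) and tenascin X, Tnxb, by 1.15 (SE 0.12) on the same scale, with edgeR adjusted p-values of all 5 between 0.0312 and 0.0362. Without control replicate 1 the calls in this list numbered 1, and without control replicate 2 there were 0. Fibronectin, Fn1, the most abundant, had a log2 fold change of 0.50 and did not pass.

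The pathway of transforming growth factor beta, a strong inducer of collagen genes in fibrosis, had 21 genes, of which 18 were tested and edgeR called 0, near the 4.63% called of all tested genes. Its most abundant gene, the signal carrier Smad2, had a log2 fold change of 0.18. At an unadjusted p under 0.05 there were 6, where 30.7% of all tested genes were, and DESeq2, which called 14.2% of all genes, called 5 of them: Tgfb2, Smad7 and Ltbp4 with positive and Ltbp1 and Ccn2 with negative log2 fold changes.

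Markers of the labelled cell type were present and were not level between the groups. Summed over 13 hepatocyte markers, the level was 5273 and 5844 CPM after Cr(VI) and 2155 and 2216 CPM in control cells, and 4 of the 9 tested (Alb, Fgb, Ttr and Apob) were called higher, where 1.78% of all tested genes were. Albumin, Alb, made up most of the sum after Cr(VI), with a mean of 3608 CPM, against 926 CPM in control cells. In control cells Trf was higher than Alb, with a mean of 1103 CPM, against 1754 CPM after Cr(VI). The liver regulator Hnf4a had 8 to 15 reads a library and Apoa1 at most 9. Of 15 stellate cell and fibroblast markers, 7 were tested and Dcn alone was called, higher; the sum of the list was 1065 and 1063 CPM against 508 and 515 CPM. Without Dcn it was 106 and 64.9 CPM against 72.1 and 72.6 CPM, and Thy1, Lrat and Pdpn had 0 reads in all libraries. Of 8 endothelial markers, 3 were tested and Pecam1 was called higher; the sum was 7.33 and 4.73 CPM against 4.83 and 5.52 CPM, with Cdh5 at 0 reads. Of 8 macrophage and leukocyte markers, 3 were tested and edgeR called 0, with 2 at an unadjusted p under 0.05 (Csf1r and Lyz2) and 0 called by DESeq2. Their sum was 45.0 and 63.7 CPM against 63.2 and 63.1 CPM, with Cd3e at 0 reads. The part of these levels in the collagen values was not tested.

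The collagen genes are long, and the longer ones had the lower log2 fold changes. The median length of the tested ones from first to last base was 105513 bases, against 21064.5 bases for all 13568 tested genes with a gene model. The 12 tested collagen genes of at least 100000 bases had a median log2 fold change of -0.20, and 4 of them had a positive value. The 11 shorter ones had a median of 1.10, and 9 of them had a positive value. Over all tested genes the medians were -0.32 for long genes, 28.6% of them positive, and 0.026 for shorter genes, 52.3% of them positive. Spearman's rho of length with log2 fold change was -0.56 across the 23 collagen genes and -0.19 across all genes, as a description over genes that share the same 4 libraries. The 3 called lower, Col5a2, Col4a3 and Col8a1, are all in the long group, but so is Col18a1, which rose. Among the short ones are Col11a2 and Col6a1.

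**Figure D4:**
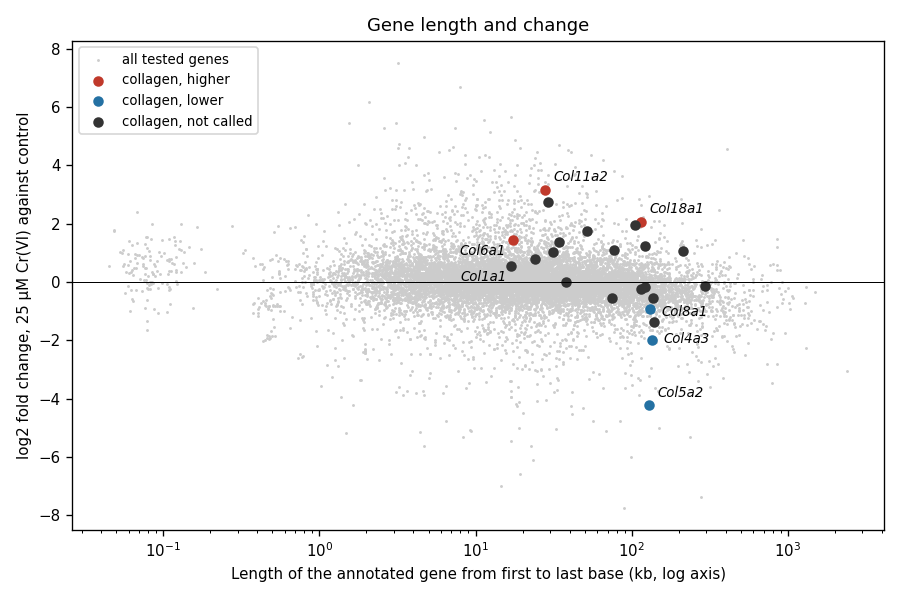
The horizontal axis is gene length on a log scale in kb and the vertical axis is the log2 fold change at 25 µM Cr(VI) against control, with grey points for all tested genes and large points for the tested collagen genes. The 3 collagen genes called lower, in blue, lie to the right of 100 kb, and of the 3 called higher, in red, Col11a2 and Col6a1 lie to its left and Col18a1 to its right.

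FAIRE-seq asked where chromatin was opened in treated relative to control cells. There was 1 library per condition, so peaks have no replicate check and differences were not tested. The score of a peak is the −log10 of the peak caller's p-value, multiplied by 10. At 25 µM Cr(VI), 11 of the 44 collagen genes (25%) held a peak between their first and last base, where 5.95% of all annotated genes did. Long genes offer more room: of genes of at least 100000 bases, 9 of 26 collagen genes (34.6%) held a peak, against 23.7% of all such genes. After 20 passages in 0.5 µM Cr(VI), 0 of the 44 collagen genes held a peak, where 1.95% of all genes and 6.95% of the long ones did.

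The 15 peaks in collagen genes were 55 to 226 bases wide, with scores from 50.04 to 80.64 and a median of 56.0. Of these, 14 lay in introns, and that of Col12a1 overlapped an exon. No peak centre lay within 1000 bases of a collagen start; the nearest, in Col16a1, was 2860.5 bases downstream of one. Thus none reached the promoter windows of Col18a1, Col6a1 and Col8a1 printed above.

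Of the 6 called genes, Col18a1 and Col4a3 held a peak. Col18a1 rose and held the highest score of the collagen peaks (80.64, chr10:77103212-77103343) and a weaker one upstream (57.08, chr10:77130714-77130845), both in introns. Col4a3 fell and held a peak of score 52.75 in an intron (chr1:82646883-82646977), of whose bases 77.9% are masked as repeats. A peak of score 71.06 lay in an intron of Col4a4 (chr1:82580073-82580136), 6744.5 bases downstream of its start and 6816.5 bases upstream of the start of Col4a3. The 2 peaks that hold the AP-1 sequence, TGAGTCA on either strand, were in Col16a1 (score 73.50, chr4:130050588-130050813) and Col9a1 (score 50.63, chr1:24186980-24187171), and 12.0% of all 2945 peaks held it. These sequences are read from the mm10 reference on the plus strand, with the AP-1 sequence in capitals.
Col18a1, stronger peak: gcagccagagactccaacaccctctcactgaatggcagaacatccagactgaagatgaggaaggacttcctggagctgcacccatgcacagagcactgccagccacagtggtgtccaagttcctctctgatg
Col18a1, weaker peak: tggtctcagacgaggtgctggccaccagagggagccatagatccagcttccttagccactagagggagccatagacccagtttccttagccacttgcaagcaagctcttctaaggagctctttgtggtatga
Col4a3 peak: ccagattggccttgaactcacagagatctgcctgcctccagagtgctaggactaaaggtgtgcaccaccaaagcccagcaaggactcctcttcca
Col4a4 peak: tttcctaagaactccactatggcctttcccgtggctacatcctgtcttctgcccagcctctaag
Col16a1 peak: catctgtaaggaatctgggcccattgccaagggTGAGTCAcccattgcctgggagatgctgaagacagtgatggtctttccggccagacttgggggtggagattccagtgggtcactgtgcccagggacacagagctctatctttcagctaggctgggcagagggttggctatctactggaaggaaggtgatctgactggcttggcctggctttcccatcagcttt
Col9a1 peak: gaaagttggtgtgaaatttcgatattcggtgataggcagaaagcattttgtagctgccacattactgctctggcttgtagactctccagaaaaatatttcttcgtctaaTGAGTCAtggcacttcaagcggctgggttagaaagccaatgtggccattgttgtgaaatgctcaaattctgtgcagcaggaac

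The remaining peaks were in Col14a1, with 3 (scores 75.41, 53.47 and 59.12), Col24a1 (74.26), Col13a1 (55.98), Col25a1 (52.45), Col23a1 (51.22) and Col12a1 (50.63), and a further one in Col9a1 scored 50.04. Several of these are mostly repeats: 96.5% of the bases of the Col14a1 peak of score 75.41 are masked. The masked share is 89.7% in the Col13a1 peak, 75.9% in the Col25a1 peak and at most 19.8% in the others named here. Col24a1, Col13a1 and Col25a1 had too few reads to be tested, and Col13a1 had none. The 8 tested collagen genes with a peak had a median log2 fold change of -0.17, with 3 positive, and the 15 without one a median of 1.04, with 10 positive. Genes with a peak were also mostly long, and the part of length in this difference was not tested.

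**Figure D5:**
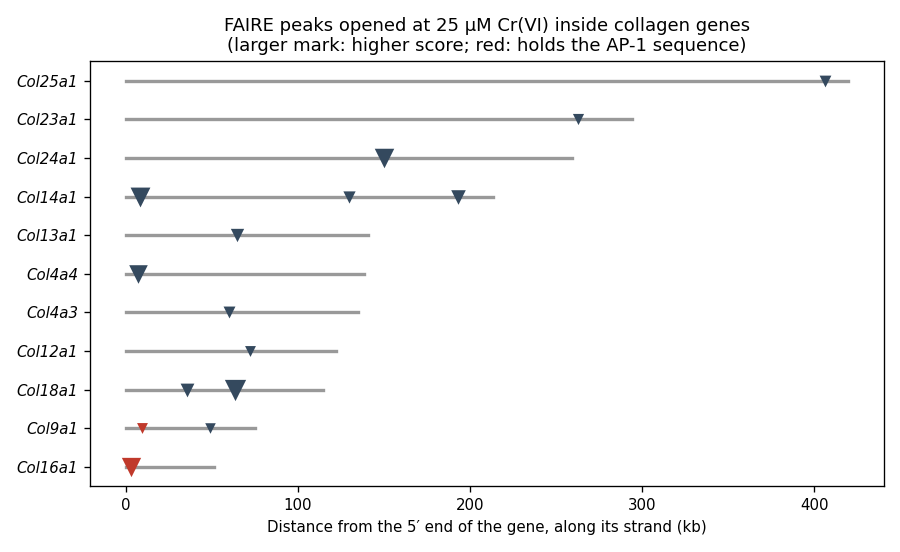
Each grey line is a collagen gene that held a peak, drawn to scale in kb from its 5′ end, and each triangle is the centre of a FAIRE peak opened at 25 µM Cr(VI), larger for a higher score and red where it holds the AP-1 sequence. The peaks lie along the whole length of the genes, and the one nearest to a start, in Col16a1, is 2860.5 bases from it.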

How the data were processed

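Poly-A RNA of 4 Hepa-1 libraries was sequenced from unstranded TruSeq libraries and aligned to mm10 by the authors with TopHat; the counting tool is not given in the sources used here. The deposited read counts per Entrez gene were used as deposited. The FAIRE peak lists that the authors deposited hold a MACS score for peaks opened in 1 treated library against 1 control library, from BWA alignments to mm10.

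Symbols came from the gene ID. Counts were tested with edgeR 4.0.16 (TMM, filterByExpr, quasi-likelihood test, two-sided, Benjamini-Hochberg over 13619 genes, threshold 0.05), with no block. Normalized CPM divides by the TMM-scaled library size; RPKM also divides by the RefSeq exon length on GRCm38.p6. Gene bodies, exons and promoters came from RefSeq. A peak was counted when it shared at least 1 base with the gene body. Alternatives were DESeq2 1.42.0, 2 other normalizations, 2 other filters, a replicate block and leaving out each library; for peaks, a score of at least 100, a centre within 1000 bases of a start and a gene body widened by 10000 bases. The script was tested on simulated data. Intervals and floors (3 counts) cover counting error only.

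All tested collagen genes are named, those called or at 5 CPM or more library by library; from each pathway list, up to 3 called genes per direction and the most abundant one. The members and lists were chosen with earlier results of these data known.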

Additional observations from a re-analysis of the deposited data

How the results depend on the processing

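Of 225 alternative values for the 23 tested collagen genes, 174 kept direction and side of the threshold, 38 newly passed it, 7 lost it and 6 changed sign. The 7 losses were Col4a3, Col8a1 and Col6a1 without either control library and Col11a2 without control replicate 1. The sign changes were of Col3a1 and Col23a1, which passed the threshold in no fit: Col3a1 was at 0.0134 with upper-quartile normalization and 0.0140 with a 1 CPM filter, and ranged from -0.33 to 0.27 with a library left out; Col23a1 ranged from -1.34 to 0.55. A replicate block gave 8 collagen genes higher and 5 lower, and 1397 and 1572 of all genes; the lists had 5 (synthesis), 2 (receptors), 2 (breakdown), 10 (other matrix) and 6 (TGF-beta) calls. The deviations of same-numbered libraries correlated at 0.0909, and the libraries share only a number. DESeq2 called 7 collagen genes higher, 978 and 1037 of all genes higher and lower, and 3 synthesis, 1 breakdown and 5 TGF-beta genes. Library size alone gave 141 genes higher and shifted the median of all genes to -0.114, with 3 collagen genes higher and 4 lower. With no filter 1 synthesis and 1 breakdown gene were called.

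Leaving out a library gave 1 to 14 collagen genes higher and 1 to 8 lower, 104 to 5407 and 183 to 5588 of all genes, 0 to 22 synthesis, 1 to 7 receptor, 1 to 10 breakdown, 0 to 21 other matrix and 0 to 18 TGF-beta genes. The high ends came without a treated library, when the lone one is assumed to vary like the controls. The collagen median was 0.29 with the 1 CPM filter, 1.04 in DESeq2 and 0.55 to 0.93 with a library left out. Collagen genes with a peak at 25 µM fell from 11 to 0 with a score of at least 100 and to 0 with a centre within 1000 bases of a start, where the share of all genes fell from 5.95% to 0.0687% and 1.05%. The cause of these changes was not tested. With 2 libraries a group, small differences in chains of few reads could not be resolved.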
